A study of Mus musculus with 12 samples.

Results

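CD4+ T cells taken from the central nervous system (CNS) of mice with active experimental autoimmune encephalomyelitis (EAE) were set against Th17 cells made in culture, that is, effector cells primed in vivo against effector cells made in vitro. The samples were chosen by their titles: 3 arrays of immunised CNS cells and 3 arrays of cultured Th17 cells, 6 of the 12 arrays of the series. The immunised CNS cells were CD4+ T cells of C57BL/6 mice that had been immunised with the myelin oligodendrocyte glycoprotein peptide MOG35-55, taken at the height of disease. The cultured Th17 cells came from naive CD4+ T cells of B6.2d2 mice, which carry a transgenic T cell receptor specific for MOG, after in vitro differentiation. The other 6 arrays held 3 samples of such cultured B6.2d2 Th17 cells after transfer into lymphopenic Rag1-/- mice, re-isolated from the CNS at the height of disease, and 3 samples of naive B6.2d2 CD4+ spleen cells. The 2 groups compared therefore differed in strain and receptor repertoire as well as in how and where the cells became effectors. The way CD4+ cells were isolated, the purity of the isolates, the culture cytokines, ages and sexes were not given in the sources used here. The replicates came from 3 independent experiments.

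Th17 cells are helper T cells that release IL-17A, IL-17F, IL-21 and IL-22. In EAE, CD4+ T cells that recognise myelin enter the CNS, meet their antigen again on local and infiltrating antigen-presenting cells and recruit macrophages and neutrophils. Effector cells in the inflamed CNS are known to release GM-CSF and interferon gamma alongside IL-17A, and regulatory T cells that express Foxp3 gather in the same tissue.

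Each array carried Cy3-labelled cRNA made from 100 ng of total RNA on a one-colour Agilent mouse gene expression design. Levels are given as log2 of the background-subtracted signal minus the 75th percentile of the array's non-control probes, so a level of 0 is the 75th percentile of that array. Of the non-control spots, 57.1% to 64.9% were well above background on an array. The number of arrays limits the precision. Of all genes, 18630 were tested with limma's moderated test over the 12 arrays, and a gene is called where its Benjamini-Hochberg adjusted p over all 18630 was under 0.05. The median log2 difference of all genes between immunised CNS cells and cultured Th17 cells was -0.17. It was -0.13, -0.05 and -0.27 within the 3 slides, each of which held 1 array of each group. Every group kept its own position on the slides, and position effects cannot be told apart from group effects. Immunised arrays correlated with each other at r = 0.982 to 0.991 across genes, and cultured Th17 arrays at 0.954 to 0.985. Cultured Th17 replicate 3 stood apart from the other 2 cultures (r = 0.954 and 0.963), so several results that turn on it are given without it as well. Not every list count that moved without it is given.

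The T cell identity of both groups was checked first. Cd4 was 4.53, 4.83 and 4.23 in immunised CNS cells, against 5.01, 5.12 and 4.88 in cultured Th17 cells (difference -0.47 ± 0.19 SE, limma adjusted p = 0.0827). With the slide as a replicate block, or without immunised CNS replicate 2, Cd4 was called lower (limma adjusted p = 0.0471 and 0.0453). Cd3e, a chain of the T cell receptor complex, was 5.17, 5.58 and 5.0 in immunised CNS cells, against 5.39, 5.30 and 5.78 in cultured Th17 cells (limma adjusted p = 0.411). Of 17 tested T cell core genes, 3 were called higher and 3 lower in immunised CNS cells, where 13.7% of all genes tested were called higher and 17.8% lower. The 3 lower genes were Cd3d (-1.06), Cd3g (-1.02) and Cd2 (-0.99), and the higher ones Cd5 (1.21), Cd6 (1.11) and Ptprc (0.65). Without immunised CNS replicate 2, 0 were higher and 6 lower. The higher count was 1 without immunised CNS replicate 1 or 3, cultured Th17 replicate 3 or any 1 of the naive replicates. The call of Cd3g was lost without immunised CNS replicate 1 or 3 or cultured Th17 replicate 1 or 2 (-1.01, -0.89, -0.95 and -0.83). In bulk RNA, fewer cells of a type and less RNA per cell cannot be told apart.

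Transcripts of the sex chromosomes separated the groups. Eif2s3y, a Y-linked translation factor gene, was not well above background on any of the 3 immunised arrays (-7.31, -7.37 and -7.09), against 2.84, 3.06 and 3.45 in cultured Th17 cells, and was at least 397-fold lower. Ddx3y, a Y-linked RNA helicase gene, was at least 97.6-fold lower in immunised CNS cells. Uty and Kdm5d, also Y-linked, were called lower too, at least 5.29-fold and at least 1.54-fold. Xist, the transcript of the inactive X chromosome, was -0.50, -0.41 and -0.73 in immunised CNS cells, against -5.22, -4.82 and -7.64 in cultured Th17 cells, with no overlap (difference 5.35 ± 2.10 SE, limma adjusted p = 0.0775). It was well above background on 2 of the 3 cultured arrays. Xist was called with only the 6 arrays compared (limma adjusted p = 0.00396), with normexp background correction (0.0356), and without naive replicate 1 (0.0234) or transferred CNS replicate 1 (0.0451). Uty, Kdm5d and Xist were chosen after Eif2s3y and Ddx3y had been seen among the largest falls. Eif2s3y averaged 2.03 in transferred CNS cells, and was 3.19, -7.67 and -7.46 in the naive samples, which differed among themselves. The labels give no sex, and the sex of the animals and the group cannot be told apart in these 6 arrays.

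Markers of other cell types moved with the groups and are given here because they bear on many genes below. Of 28 tested macrophage and monocyte markers, 26 were called higher and 0 lower in immunised CNS cells, with a median log2 difference of 6.24. Their mean linear signal, on the log2 scale, was 5.20 to 6.35 in immunised CNS cells, against 2.80 to 3.63 in cultured Th17 cells. C1qa and C1qc, the complement chains made by tissue macrophages, were not well above background in any culture and were at least 1505-fold and at least 1765-fold higher in immunised CNS cells. Neutrophil markers had 12 of 17 higher and 0 lower, with summed levels of 5.14 to 5.49 in immunised CNS cells, against 2.44 to 2.74 in cultured Th17 cells. Retnlg, Ltf and Ngp, neutrophil granule or neutrophil-derived protein genes, were not well above background in culture and were at least 1844-fold, 1319-fold and 1013-fold higher in immunised CNS cells. Microglia markers had 11 of 12 higher (3.41 to 3.80 in immunised CNS cells, against 2.78 to 3.16 in cultured Th17 cells), with P2ry12 at least 43.2-fold higher.

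Other marker lists moved too. Dendritic cell markers, which include shared antigen presentation genes, had 9 of 13 higher and 1 lower (5.40 to 6.15 in immunised CNS cells, against 3.15 to 4.13 in cultured Th17 cells). CD8 and NK cell markers had 6 of 10 higher and 0 lower, at low levels (-0.68 to -0.53 in immunised CNS cells, against -3.80 to -1.64 in cultured Th17 cells). Cd8a, the CD8 co-receptor chain, was at least 6.75-fold higher in immunised CNS cells, at -2.67, -2.76 and -3.60. Neuron and glia markers had 8 of 17 higher and 2 lower, while their summed level ran the other way, at 1.0 to 1.52 in immunised CNS cells, against 1.87 to 2.86 in cultured Th17 cells. Endothelium and stroma markers had 5 of 10 higher and 0 lower (-0.23 to 0.14 in immunised CNS cells, against -0.43 to -0.15 in cultured Th17 cells). Red cell and platelet markers had 3 of 6 higher and 0 lower (0.18 to 1.80 in immunised CNS cells, against -3.62 to -2.95 in cultured Th17 cells), and 1 higher without immunised CNS replicate 1. B cell and plasma cell markers had 0 of 11 higher and 1 lower, gamma-delta T and innate lymphoid markers 1 of 4 higher and 1 lower, and mast cell, basophil and eosinophil markers 1 of 5 higher and 0 lower. These last 3 lists rest on single calls: the B cell count lower was 0 to 3 on leaving out 1 array in turn (3 without naive replicate 2), the gamma-delta count lower was 0 without immunised CNS replicate 3, and the mast cell count higher was 0 on leaving out any 1 array other than cultured Th17 replicate 2. The part of these cells in the results below was not tested.

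**Figure D1:**
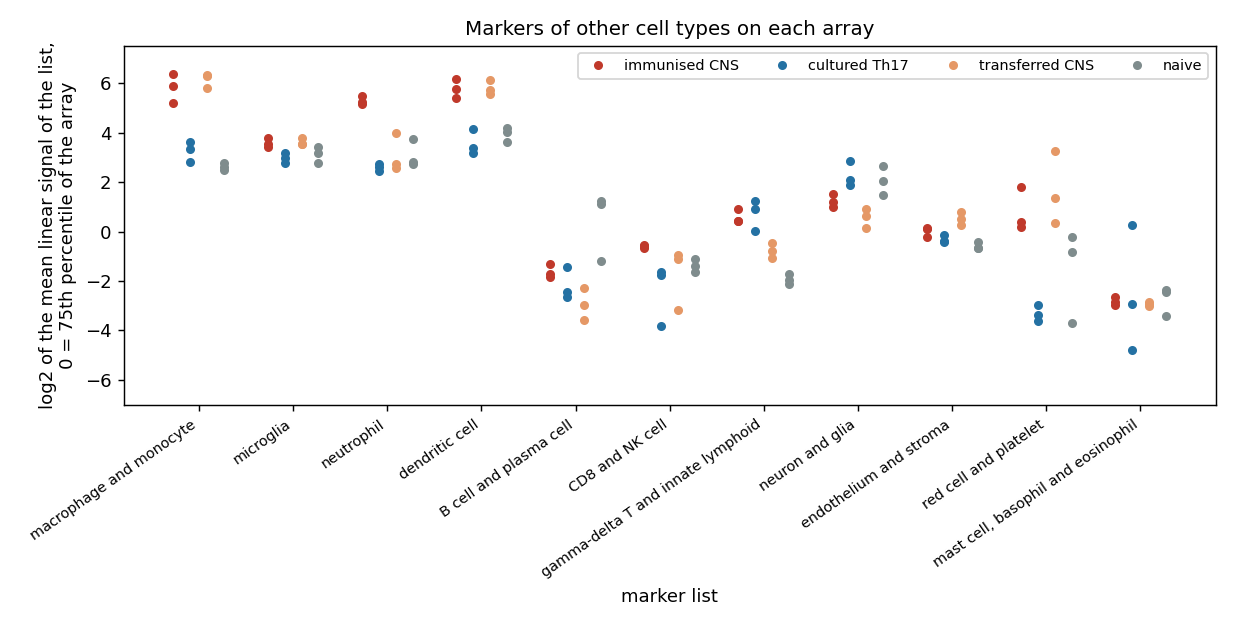
Mean linear signal of the tested markers of 11 other cell types on each of the 12 arrays, on the log2 scale (vertical axis; 0 is the 75th percentile of the array). Each point is 1 array; macrophage, neutrophil and dendritic cell markers on the immunised CNS arrays all lie above those on the cultured Th17 arrays, with macrophage levels of 5.20 to 6.35 against 2.80 to 3.63.

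Transcripts of T cell receptor variable segments, which macrophages and neutrophils do not rearrange, also separated the groups. A population with a transgenic receptor uses largely one alpha and beta pair, whereas T cells of C57BL/6 mice rearrange many variable segments. The array carried 24 probes described in its annotation as T cell receptor beta variable segments, of which 21 were tested. Beta variable V23, 30 and 12-1 passed the filter for testing only through the immunised arrays, which favoured a rise on them. In immunised CNS cells 19 of the 21 were called higher than in cultured Th17 cells and 0 lower. Their median difference was 4.63 log2 units (range 0.33 to 7.81), and on 16 of them all 3 immunised arrays lay above the other 9 arrays. Of all genes tested, 0.811% had that order together with calls against both cultured Th17 and transferred CNS cells. These probes were examined after several had appeared among the largest differences.

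Probes for single segments show the size of the contrast. The probe for beta variable 20 (ENSMUST00000103277) was 0.40, 0.60 and 0.85 in immunised CNS cells, against -6.38, -7.82 and -7.15 in cultured Th17 cells, where it was not well above background, so that it was at least 83.4-fold higher. The probe for beta variable 10 (ENSMUST00000103265) was at least 45.6-fold higher in immunised CNS cells. Beta variable 15 (ENSMUST00000103273) was 0.30, 0.61 and 1.22 in immunised CNS cells, against -5.84, -7.08 and -7.03 in cultured Th17 cells. Beta variable 13-1 (ENSMUST00000103268) was an exception, at 0.40, 0.61 and 0.49 in immunised CNS cells, against -0.41, 0.88 and 0.04 in cultured Th17 cells (limma adjusted p = 0.676).

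A few receptor probes ran the other way and are shown because they carry the largest falls of the repertoire. The probe for a T cell receptor beta cDNA (GU599378), placed on mm9 at chr6:41102170-41102229 between the probes for beta variable 15 and beta variable 17, was 1.55, 2.08 and 1.04 in immunised CNS cells, against 8.15, 8.46 and 8.16 in cultured Th17 cells. Its difference was -6.70 ± 0.24 (SE, limma adjusted p = 1.5e-07), and it averaged 7.73 in transferred CNS cells and 8.45 in naive cells. All 9 arrays of B6.2d2 cells lay above the 3 immunised arrays. The probes for alpha variable 9N-4 (ENSMUST00000103626, mm9 chr14:53914576-53914635) and alpha variable 9D-1 (LOC100505348, mm9 chr14:53412323-53412382) fell by 5.73 and 5.0 log2 units in immunised CNS cells. Another probe of the alpha locus, described as a predicted gene (ENSMUST00000103594, mm9 chr14:53540714-53540773), fell by 5.81.
GU599378: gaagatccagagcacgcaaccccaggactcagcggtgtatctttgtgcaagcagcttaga
ENSMUST00000103626: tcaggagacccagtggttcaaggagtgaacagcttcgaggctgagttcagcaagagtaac
LOC100505348: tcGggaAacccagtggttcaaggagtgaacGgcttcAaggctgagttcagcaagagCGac
ENSMUST00000103594: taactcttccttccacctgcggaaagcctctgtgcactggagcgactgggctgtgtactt
These are the 60-base probe sequences of the array design, 5′ to 3′ on the plus strand. Capitals in LOC100505348 mark the bases that differ from ENSMUST00000103626. The 2 variable 9 probes share 54 of 60 bases and may report the same transcripts.

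Among the 30 tested alpha variable probes, 19 were called higher and 3 lower in immunised CNS cells, with a median difference of 1.31. Alpha variable 7-4 (ENSMUST00000103641) had the largest rise, 3.64, at -1.53, -0.73 and -2.01 in immunised CNS cells, against -4.13, -4.62 and -6.46 in cultured Th17 cells. The constant regions, which every alpha-beta T cell transcribes, were lower in immunised CNS cells. The alpha constant probe (ENSMUST00000103740) was 2.93, 3.17 and 2.89 in immunised CNS cells, against 5.51, 5.93 and 5.09 in cultured Th17 cells. Beta constant 1 (ENSMUST00000103291) fell by 1.46 and beta constant 2 (ENSMUST00000103299) by 2.31. Whether the 2 beta constant probes share signal was not tested.

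**Figure D2:**
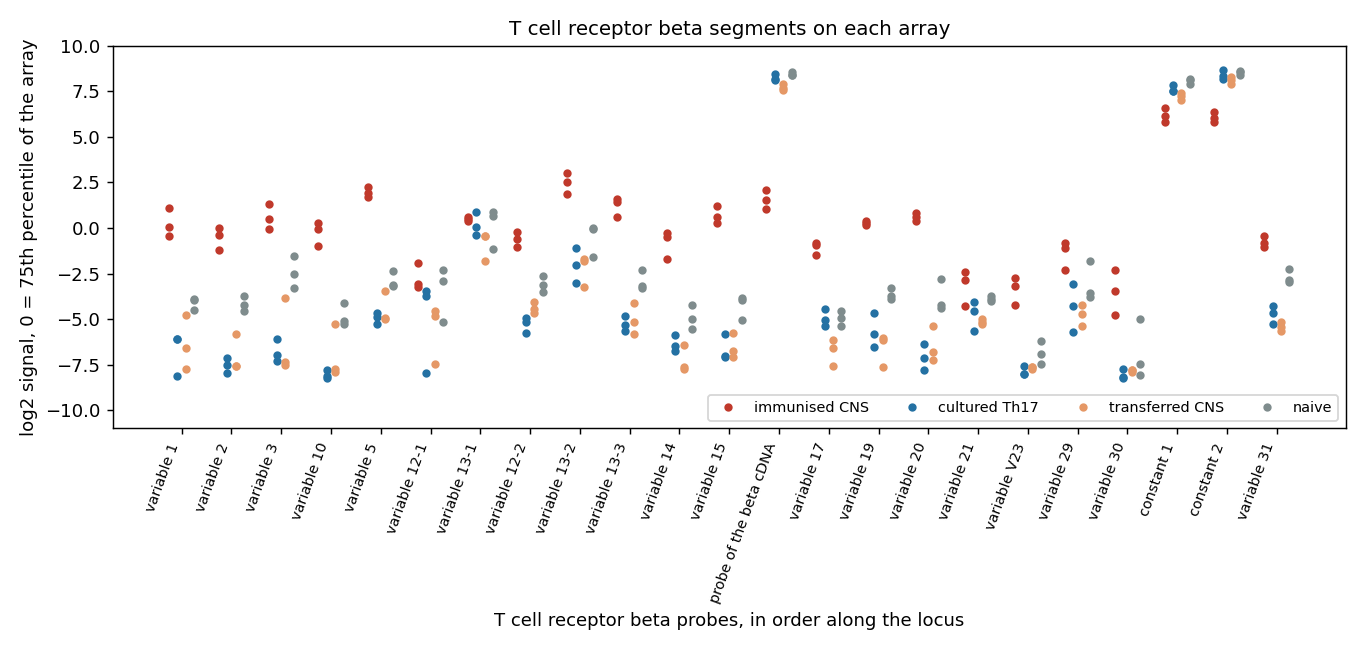
Log2 level (0 is the 75th percentile of the array) of the tested T cell receptor beta probes in their order along the locus, with 1 point per array and 3 arrays per group. The immunised CNS points lie above the cultured Th17 points for most variable segments, and far below them for the probe of the beta cDNA, at 1.55, 2.08 and 1.04 against 8.15, 8.46 and 8.16.

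Some named genes were well above background on only part of a group's arrays, and the sizes of their differences rest in part on values near background. These are Dapl1 and beta variable 15 (ENSMUST00000103273) on 1 of 3 cultured arrays, Cx3cr1, Cxcl10, Entpd1, Il1rn, Nrp1, Slc7a11 and alpha variable 7-4 (ENSMUST00000103641) on 2 of 3 cultured arrays, and Scd1 on 1 of 3 immunised arrays.

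The shares to set beside every list count against cultured Th17 cells are those of all genes tested, 13.7% called higher and 17.8% lower. Across all genes, 5862 of 18630 (31.5%) were called, 2550 higher and 3312 lower in immunised CNS cells. With a change of at least 2-fold in addition, 1993 were higher (10.7%) and 1959 lower (10.5%). Among genes well above background on all 6 arrays, the 10 largest rises were Apoe, Camp, C1qb, Apoc2, Chil3, Lcn2, Adgre1, Ly86, Fn1 and Ms4a7, with log2 differences of 9.90 (Apoe, a lipid carrier of macrophages) to 7.56 (Ms4a7, a macrophage membrane protein gene). Macrophages or neutrophils are known to express these genes, and the marker lists of both moved as given above. Camp, the gene of the antimicrobial peptide cathelicidin, was 5.88, 5.23 and 5.65 in immunised CNS cells, against -4.21, -3.80 and -4.16 in cultured Th17 cells (difference 9.64 ± 1.09 SE, limma adjusted p = 0.000124). Transferred CNS cells averaged 0.00 for Camp, but their arrays were far apart, at 3.11, -0.19 and -2.91.

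The 10 largest falls included the beta cDNA probe GU599378 and the alpha locus probes ENSMUST00000103594 and ENSMUST00000103626, together with Enpp2, Muc13, Il17f, Lama5, Bace2 and Prl2c1. Enpp2, the gene of autotaxin, which makes lysophosphatidic acid, was -4.61, -2.56 and -1.57 in immunised CNS cells, against 1.94, 2.14 and 6.08 in cultured Th17 cells (difference -6.30 ± 1.09 SE, limma adjusted p = 0.00171). Muc13, a membrane mucin gene, was -3.58, -3.41 and -4.18 in immunised CNS cells, against 1.77, 1.57 and 2.33 in cultured Th17 cells (difference -5.62 ± 0.47 SE). For both genes every immunised array lay below every cultured array, as for 29.4% of all genes tested; 19.6% had every immunised array above. Lama5, a laminin chain gene, fell by 5.18, Bace2, a membrane protease gene, fell by 5.16, and Prl2c1, of the prolactin family, by 5.14.

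Beside the Y-linked genes, 3 transcripts present in culture were not well above background in immunised CNS cells and had the largest such falls. Foxf1, a forkhead factor gene, was 1.72, 2.28 and 1.73 in cultured Th17 cells and at least 172-fold lower in immunised CNS cells. Vldlr, a lipoprotein receptor gene, was at least 90.2-fold lower, and Adm, the hypoxia-responsive gene of adrenomedullin, at least 57.4-fold lower in immunised CNS cells. In cultured Th17 cells Vldlr was -0.86, 0.17 and 3.63 and Adm -1.01, -0.45 and 2.44, so both bounds rest in part on the third culture. Transferred CNS cells averaged -4.80 for Foxf1, -5.14 for Vldlr and -3.85 for Adm.

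The Th17 cytokines did not move together. Of 6 tested Th17 cytokine genes, 0 were called higher and 2 lower, with a median difference of -1.98 beside -0.17 for all genes. Il17f was -0.38, 0.20 and -1.55 in immunised CNS cells, against 4.77, 6.50 and 3.46 in cultured Th17 cells (difference -5.49 ± 0.79 SE, limma adjusted p = 0.000543). Il21, whose product supports Th17 and B cells, was -0.25, 0.30 and -0.44 in immunised CNS cells, against 3.59, 4.84 and 3.90 in cultured Th17 cells (difference -4.24 ± 0.47 SE, limma adjusted p = 0.000106). Both groups were apart for each of these genes. Il21 averaged 4.14 in transferred CNS cells, and the difference between immunised and transferred CNS cells was -4.27 (limma adjusted p = 0.00109).

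Il17a itself was high in both groups. It was 2.99, 4.79 and 2.70 in immunised CNS cells, against 5.46, 5.55 and 2.41 in cultured Th17 cells, and the groups overlapped (difference -0.98 ± 0.80 SE, limma adjusted p = 0.375). Il22, the gene of a cytokine that acts on epithelial cells, was -0.30, 0.36 and 0.03 in immunised CNS cells, against 1.67, 4.17 and -2.04 in cultured Th17 cells (limma adjusted p = 0.429). The third culture was the lowest for both genes. Without cultured Th17 replicate 3 the difference of Il17a was -2.0 (limma adjusted p = 0.0263) and that of Il22 -2.89 (limma adjusted p = 0.00517), and 4 Th17 cytokine genes were called lower and 1, Il10, higher (3.08). Without cultured Th17 replicate 2 the difference of Il22 was 0.22.

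Among 18 tested Th17 factors, 4 were called higher and 3 lower, beside 13.7% and 17.8% of all genes. The median difference was 0.04. Batf, a factor of the Th17 programme, fell by 1.47, and Hif1a, the hypoxia factor gene, by 0.94. Nfkbiz and Nfkbid, genes of nuclear IκB proteins that act with NF-κB, rose by 4.24 and 4.09, and Nfkbiz was 1.82, 2.12 and 2.30 in immunised CNS cells, against -2.57, -1.81 and -2.11 in cultured Th17 cells. Ahr, the aryl hydrocarbon receptor gene, rose by 0.91, and its call was lost without immunised CNS replicate 1 or 2 or cultured Th17 replicate 1 or 2. Bhlhe41 was at least 2.30-fold higher in immunised CNS cells, a call lost without immunised CNS replicate 3. Rora and Maf did not pass the test, with differences of 0.81 and -0.94. Both were called without cultured Th17 replicate 2 (1.28 for Rora and -1.39 for Maf). Without cultured Th17 replicate 1, 5 factors were lower.

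The receptors and surface genes of Th17 cells had 4 of 16 tested called higher and 3 lower, beside 13.7% and 17.8% of all genes. Il23r, the receptor gene for IL-23, was -2.20, -1.18 and -2.55 in immunised CNS cells, against 1.95, 3.24 and -2.18 in cultured Th17 cells (difference -2.98 ± 1.18 SE, limma adjusted p = 0.0797). Only the third culture lay within the range of the immunised arrays, and without it the difference was -4.57 (limma adjusted p = 0.0021). Il23r was also called with the slide as a replicate block (limma adjusted p = 0.0178). Without that culture 9 rather than 3 genes of the list were lower and 2 rather than 4 higher, and the higher count was also 2 without immunised CNS replicate 1 or 3 or cultured Th17 replicate 1. Ltb4r1, a leukotriene B4 receptor gene, fell by 1.87 and Il12rb1, the chain shared by the IL-12 and IL-23 receptors, by 1.13. The call of Il12rb1 was lost without immunised CNS replicate 1 or 2 or cultured Th17 replicate 1 (-1.03, -1.13 and -1.09). Cd9, a tetraspanin gene, rose by 3.28, and Il1rn, the gene of the IL-1 receptor antagonist, by 4.73. Myeloid cells also express Cd9 and Il1rn. Ccr6, the chemokine receptor of Th17 cells, was 2.43, 3.53 and 1.53 in immunised CNS cells, against -1.40, 2.87 and -3.58 in cultured Th17 cells (limma adjusted p = 0.0931); it was called with the replicate block (limma adjusted p = 0.0322) and without cultured Th17 replicate 2 (limma adjusted p = 0.00308).

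**Figure D3:**
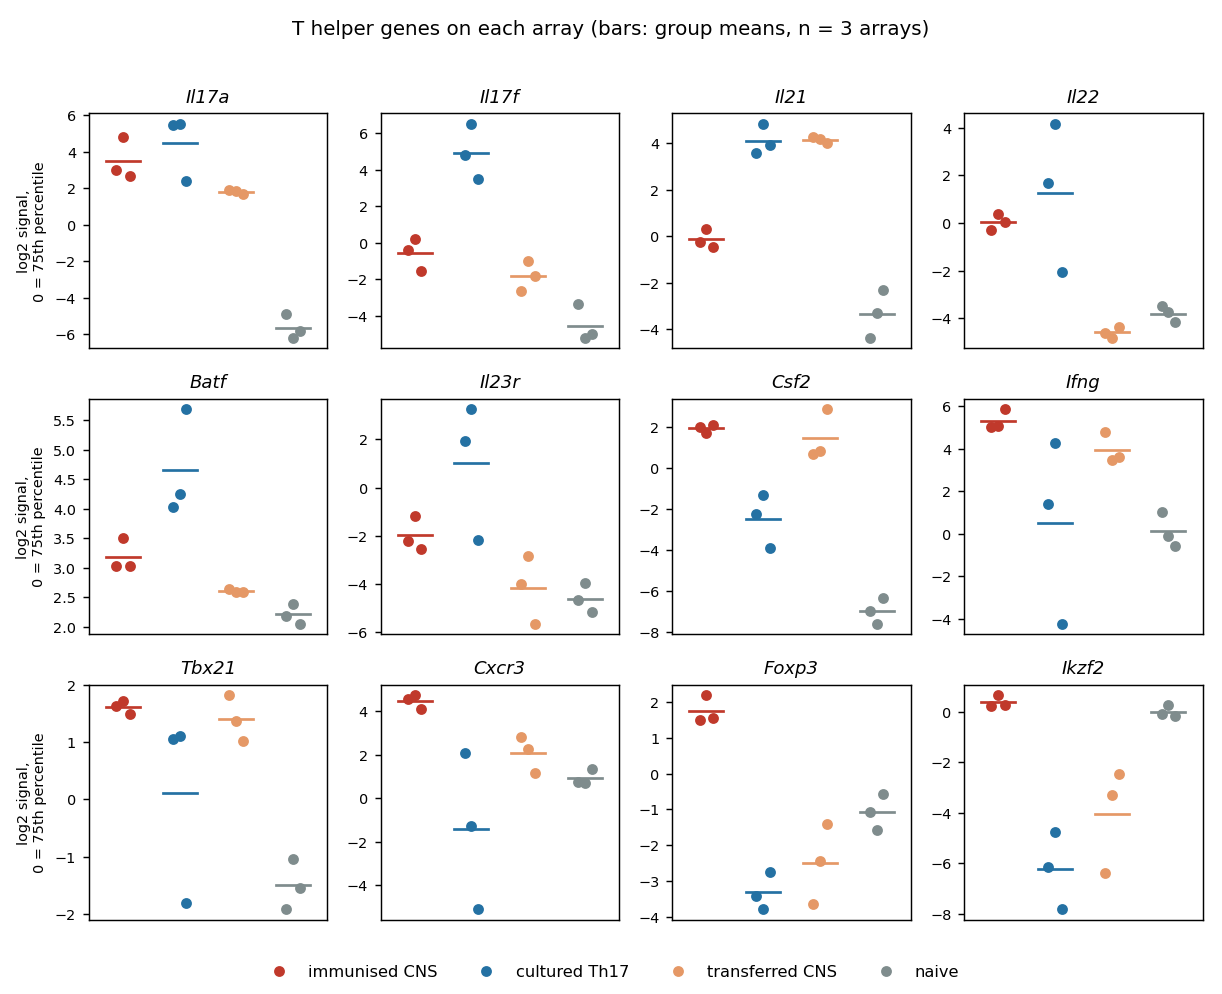
Log2 level (0 is the 75th percentile of the array) of 12 T helper genes, 1 panel per gene with its own vertical scale, 1 point per array and a bar at the mean of 3 arrays per group. Il17f and Il21 are lower on every immunised CNS array than on every cultured Th17 array, Il17a overlaps between the groups, and Csf2, Foxp3 and Ikzf2 are higher on every immunised CNS array.

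Of 20 tested Th1 genes, 10 were called higher in immunised CNS cells and 1 lower, with a median difference of 1.81. The within-slide medians were 0.54, 0.97 and 3.12. Ifng, the gene of interferon gamma, was 5.04, 5.06 and 5.85 in immunised CNS cells, against 1.42, 4.26 and -4.22 in cultured Th17 cells (difference 4.83 ± 1.60 SE, limma adjusted p = 0.042). That call was near the threshold and was lost on leaving out 10 of the 12 arrays in turn, the exceptions being cultured Th17 replicates 2 and 3. Tbx21, the gene of T-bet, the lineage factor of Th1 cells, was 1.63, 1.72 and 1.48 in immunised CNS cells, against 1.05, 1.10 and -1.80 in cultured Th17 cells (limma adjusted p = 0.101), and was called without cultured Th17 replicate 2 (limma adjusted p = 0.0474). The cultures ranged far more widely than the immunised samples in both genes.

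Other Th1 genes were called higher as well. Gzmk, a granzyme gene, was 1.50, 1.56 and 1.22 in immunised CNS cells and not well above background in any culture, and was at least 146-fold higher. Cxcr3, the receptor for interferon-induced chemokines, was 4.56, 4.74 and 4.09 in immunised CNS cells, against 2.11, -1.25 and -5.10 in cultured Th17 cells (difference 5.88 ± 1.34 SE). Xcl1, the lymphotactin gene, was at least 15.9-fold higher. Ccl5 rose by 4.44, Fasl, the gene of Fas ligand, by 4.40 and Tnf by 3.39. The call of Tnf was lost when only the 6 arrays compared were fitted (limma adjusted p = 0.0559). Hopx rose by 3.16. Il12rb2, the IL-12 receptor chain of Th1 cells, was the 1 member called lower, by 2.15. NK cells and CD8 T cells also express Gzmk, Xcl1, Ccl5 and Fasl, and their marker list is given above.

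GM-CSF and other genes linked to pathogenic Th17 cells had 7 of 20 called higher and 1 lower (median difference 0.42). The lower count was 3 without cultured Th17 replicate 3, and 0 on leaving out 8 of the other arrays in turn. Csf2, the GM-CSF gene, was 2.04, 1.74 and 2.12 in immunised CNS cells, against -2.22, -1.32 and -3.91 in cultured Th17 cells (difference 4.45 ± 0.69 SE, limma adjusted p = 0.000851). All 3 immunised arrays lay above all 3 cultures. Ccl3 and Ccl4, chemokine genes that macrophages transcribe too, rose by 5.01 and 4.91. Icos, a co-stimulatory receptor gene, rose by 0.93; its call was lost without immunised CNS replicate 2 or 3, cultured Th17 replicate 2 or 3 or transferred CNS replicate 2, and with the replicate block (limma adjusted p = 0.0548).

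Genes of regulatory T cells, which restrain effector cells, had 7 of 22 called higher and 3 lower. Foxp3, the lineage factor, was 1.49, 2.19 and 1.57 in immunised CNS cells, against -3.41, -3.79 and -2.75 in cultured Th17 cells (difference 5.06 ± 0.51 SE, limma adjusted p = 6.01e-05). Ikzf2, the gene of Helios, was 0.24, 0.66 and 0.29 in immunised CNS cells, against -6.13, -4.74 and -7.82 in cultured Th17 cells (difference 6.62 ± 0.93 SE). It was well above background in 1 of the 3 cultures, so that the size of this difference rests on values near background. Klrg1, a receptor of differentiated effector and regulatory cells, was at least 166-fold higher. Nrp1 and Entpd1, which myeloid cells also express, rose by 4.71 and 4.57. Il2ra, the IL-2 receptor alpha chain that activated T cells also carry, fell by 2.48 and Ctla4, an inhibitory receptor gene, by 1.27.

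The 3 leading genes of that list separated the immunised CNS cells from the transferred ones as well. Foxp3 averaged -2.50 in transferred CNS cells, and the difference between immunised and transferred was 4.25 (limma adjusted p = 0.00196). For Ikzf2 it was 4.43 (limma adjusted p = 0.0328) and for Klrg1 3.62 (limma adjusted p = 0.00102). Between immunised and transferred CNS cells 344 of 18630 genes were called higher (1.85%) and 256 lower (1.37%), 3.22% in all. The count without cultured Th17 replicate 3, which is no sample of that comparison but enters the shared estimate of the spread, was 1290 in place of 600. It was 193, 220 and 365 without immunised CNS replicates 1, 2 and 3, and 341 and 271 without transferred CNS replicates 2 and 3.

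Th2 genes had 3 of 8 called higher and 1 lower. Gata3, the Th2 factor gene, was 2.81, 3.47 and 2.68 in immunised CNS cells, against 2.84, 2.11 and 4.91 in cultured Th17 cells (limma adjusted p = 0.749), and the difference of -0.30 turned to 0.52 without cultured Th17 replicate 3, also not called. Il1rl1, the IL-33 receptor gene, and Areg, the amphiregulin gene, rose by 4.19 and 4.08. Follicular helper genes had 5 of 17 higher and 3 lower, counting Il21 among the lower ones. The largest rise of that list was Cebpa, a factor of myeloid cells, at least 158-fold, beside the macrophage markers given above. Without immunised CNS replicate 2, 2 of the list were higher. Co-inhibitory receptors had 4 of 15 higher and 2 lower, and cytotoxic granule genes 8 of 17 higher and 1 lower. TNF superfamily genes had 6 of 26 higher and 5 lower, beside 13.7% and 17.8% of all genes. Tnfrsf8, the CD30 gene, was at least 30.6-fold lower in immunised CNS cells.

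Genes of naive, memory and resting T cells had 8 of 26 called higher and 4 lower. Klf2, a factor that keeps T cells quiescent and in circulation, was 5.16, 5.76 and 4.94 in immunised CNS cells, against 1.80, 0.95 and -0.27 in cultured Th17 cells. Dtx1, a Notch pathway gene linked to anergy, rose by 5.13. Ccr9 and Dapl1 rose by 4.62 and 4.84. Bach2, a repressor of effector genes, was lower, at -2.15, -1.96 and -2.90 in immunised CNS cells, against 0.74, 0.57 and 0.20 in cultured Th17 cells. Satb1, a chromatin organiser gene, fell by 2.45. Without immunised CNS replicate 1 or 3, 2 rather than 4 members were lower.

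Immediate early genes, which are induced within minutes of receptor signals and also by handling of tissue, moved mostly in 1 direction. Macrophage and neutrophil markers rose in the same arrays, and which cells carried the transcripts below was not tested. Of 26 tested, 22 were called higher and 1 lower, with a median difference of 3.12 and medians of 3.63, 3.27 and 2.98 within the 3 slides. Fos was 5.83, 5.56 and 5.76 in immunised CNS cells, against -2.86, -1.49 and -0.57 in cultured Th17 cells (difference 7.35 ± 1.22 SE). Fosb rose by 7.50, Nr4a1, a target of T cell receptor signals, by 5.02, Egr2 by 3.77 and Cd69, an early activation antigen gene, by 4.66. Dusp1 rose by 5.35. Myc was the 1 member called lower, by 1.48. Naive cells averaged 2.22 for Fos and transferred CNS cells 5.78.

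Il2, the gene of the T cell growth factor, was -0.76, -0.72 and -1.04 in immunised CNS cells, against -7.17, -5.79 and -7.84 in cultured Th17 cells (difference 6.09 ± 0.54 SE, limma adjusted p = 2.76e-05). It was well above background in 1 of the 3 cultures. Cytokine feedback genes as a list had 5 of 15 higher and 4 lower. The count of higher members was 3 without immunised CNS replicate 3 or cultured Th17 replicate 1 or 3.

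Of 36 tested interferon-stimulated genes, which type I and type II interferons induce, 21 were called higher in immunised CNS cells and 0 lower, with a median difference of 1.80. Cxcl10, the gene of a chemokine for CXCR3, was 4.51, 4.32 and 5.56 in immunised CNS cells, against -3.62, -1.17 and -6.50 in cultured Th17 cells (difference 8.56 ± 1.05 SE). Cxcl9 rose by 6.83, Oasl1 by 5.80, Oas1a by 5.09 and Irf7, a factor of the interferon loop, by 3.66. Isg15 rose by 2.23, a call lost without immunised CNS replicate 3 (1.88, limma adjusted p = 0.0894). The within-slide medians of the list were 1.19, 0.74 and 3.78, and without immunised CNS replicate 3 the count of higher members was 13. Macrophages also express these genes.

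The proximal promoters of interferon-stimulated genes were examined for the interferon-stimulated response element, here GAAA, any 2 bases and GAAA again, on either strand, in RefSeq windows of 250 bases before to 50 after the gene start (GRCm38.p6). Of 25 list genes with a window, 15 held it, against 3.99% of 27025 genes. The windows of Cxcl10 (chr5:92348840-92349139, minus strand) and Isg15 (chr4:156200769-156201068, minus strand) are shown as examples, with matches in capitals.
Cxcl10: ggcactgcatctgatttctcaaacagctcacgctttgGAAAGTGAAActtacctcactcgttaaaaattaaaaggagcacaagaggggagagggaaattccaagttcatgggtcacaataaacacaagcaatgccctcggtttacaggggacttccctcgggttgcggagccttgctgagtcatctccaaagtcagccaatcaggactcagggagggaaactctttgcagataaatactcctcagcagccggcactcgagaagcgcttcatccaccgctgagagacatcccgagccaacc
Isg15: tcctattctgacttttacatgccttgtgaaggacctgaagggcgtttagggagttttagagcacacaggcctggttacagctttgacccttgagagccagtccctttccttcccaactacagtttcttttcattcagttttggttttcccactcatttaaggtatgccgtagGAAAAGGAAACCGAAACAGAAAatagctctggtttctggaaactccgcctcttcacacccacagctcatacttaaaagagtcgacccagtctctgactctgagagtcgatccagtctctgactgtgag
The window of Isg15 held 3 overlapping matches. A match describes the letters of the window and is no evidence of binding in these cells.

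Genes of cholesterol and fatty acid synthesis were mostly lower in immunised CNS cells. Of 28 tested, 24 were called lower and 0 higher, with a median difference of -1.83 and within-slide medians of -1.96, -1.63 and -2.03. Their mean linear signal was 0.99 to 1.15 on the log2 scale in immunised CNS cells, against 2.79 to 3.16 in cultured Th17 cells. It was 0.79 to 1.22 in transferred CNS cells and 0.63 to 1.13 in naive cells, and the cultured cells alone stood high. Hmgcs1, which encodes an early enzyme of the mevalonate pathway, was 1.90, 1.84 and 1.98 in immunised CNS cells, against 4.26, 4.25 and 4.32 in cultured Th17 cells (difference -2.37 ± 0.17 SE, limma adjusted p = 6.52e-06). Fdps, a prenyl synthase gene, fell by 2.78, and Sqle, the squalene epoxidase gene, by 2.52. Scd1 and Scd2, fatty acid desaturase genes, fell by 5.30 and 4.34, and Fads2 was at least 23.6-fold lower.

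The same promoter windows were searched for CCAAT, the box bound by NF-Y, which acts with the sterol factors, and for the sterol element TCACNCCAC, on either strand. CCAAT was present in 17 of the 19 list genes with a window, against 41.1% of all 27025 genes. TCACNCCAC was present in 1 of 19, against 1.44% of all. The 1 gene was Hmgcs1 (chr13:119690101-119690400, plus strand), whose window is shown with the 5 matches of both motifs in capitals.
Hmgcs1: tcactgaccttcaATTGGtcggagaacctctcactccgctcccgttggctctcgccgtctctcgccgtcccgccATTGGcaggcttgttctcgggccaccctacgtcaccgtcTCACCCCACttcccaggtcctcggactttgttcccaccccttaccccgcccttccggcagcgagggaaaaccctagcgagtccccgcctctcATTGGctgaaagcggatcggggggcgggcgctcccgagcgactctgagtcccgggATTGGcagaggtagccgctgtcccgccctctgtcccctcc
ATTGG is CCAAT read on the other strand. In the same search ACGTG, the core of the hypoxia element, was in 12 of 14 hypoxia response genes. It was in 21.8% of all genes and 27.9% of tested genes. TGATGNAA, an ATF4 element, was in 7 of 22 amino acid and ATF4 genes, against 4.51% of all and 3.06% of tested genes. The motif counts take in list members that were not called. These 5 motifs were all that were searched, and were chosen with the results of the lists known.

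Cholesterol efflux genes ran opposite to synthesis. Of 11 tested targets of the sterol receptor LXR, 7 were called higher and 2 lower; 1 was lower without immunised CNS replicate 1 or 3 or cultured Th17 replicate 2. Apoe, a lipid carrier gene, was 7.96, 7.32 and 8.33 in immunised CNS cells, against -2.21, -2.37 and -1.50 in cultured Th17 cells. Apoc2, a lipase activator gene, rose by 8.21. Abca1, a cholesterol transporter gene, rose by 3.36, and Nr1h3, the gene of LXR alpha, by 4.13. Macrophages express all 4 strongly, and macrophage markers rose in the same arrays.

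Glycolysis genes had 1 of 22 called higher and 7 lower, and hypoxia response genes 1 of 14 higher and 6 lower (median difference -1.31). Slc2a3, a glucose transporter gene, was 2.23, 2.31 and 2.19 in immunised CNS cells, against 3.48, 4.10 and 5.95 in cultured Th17 cells. Pgk1 fell by 1.78 and Aldoc by 2.26. P4ha2, a collagen hydroxylase gene, was -3.63, -2.92 and -2.40 in immunised CNS cells, against 0.32, 1.76 and 4.12 in cultured Th17 cells (difference -5.05 ± 0.76 SE). Vegfa, an angiogenic factor gene that macrophages make, was the 1 hypoxia gene called higher, by 2.67, and lost its call without immunised CNS replicate 3. The third culture was the highest for Slc2a3, P4ha2 and Adm. Without cultured Th17 replicate 1, 11 glycolysis and 10 hypoxia genes were lower.

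Cell cycle genes had 12 of 30 called lower and 0 higher (median difference -0.84). Aurka, a mitotic kinase gene, was 0.30, 0.58 and 0.73 in immunised CNS cells, against 2.44, 1.73 and 2.58 in cultured Th17 cells (difference -1.72 ± 0.28 SE). Mki67, a proliferation marker, was 3.32, 3.45 and 3.63 in immunised CNS cells, against 4.24, 3.81 and 3.92 in cultured Th17 cells (limma adjusted p = 0.334; 0.0454 without naive replicate 1). The count depended on single arrays. It was 4, 7 and 5 without immunised CNS replicates 1, 2 and 3, and 4 without cultured Th17 replicate 1.

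Amino acid and ATF4 genes had 2 of 26 called higher and 7 lower than in cultured Th17 cells. Cth, which encodes an enzyme of cysteine synthesis, was not well above background in immunised CNS cells and was at least 7.78-fold lower. Stc2, a stress-induced secreted protein gene, was -2.96, -3.08 and -2.20 in immunised CNS cells, against 0.98, 1.89 and 3.06 in cultured Th17 cells. Slc7a11, the cystine transporter gene, which macrophages also express, rose by 3.54. Against transferred CNS cells 9 of the 26 were called lower and 0 higher, where 1.37% of all genes were called lower. Without immunised CNS replicate 1 or 3 the count lower than in culture was 4.

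**Figure D4:**
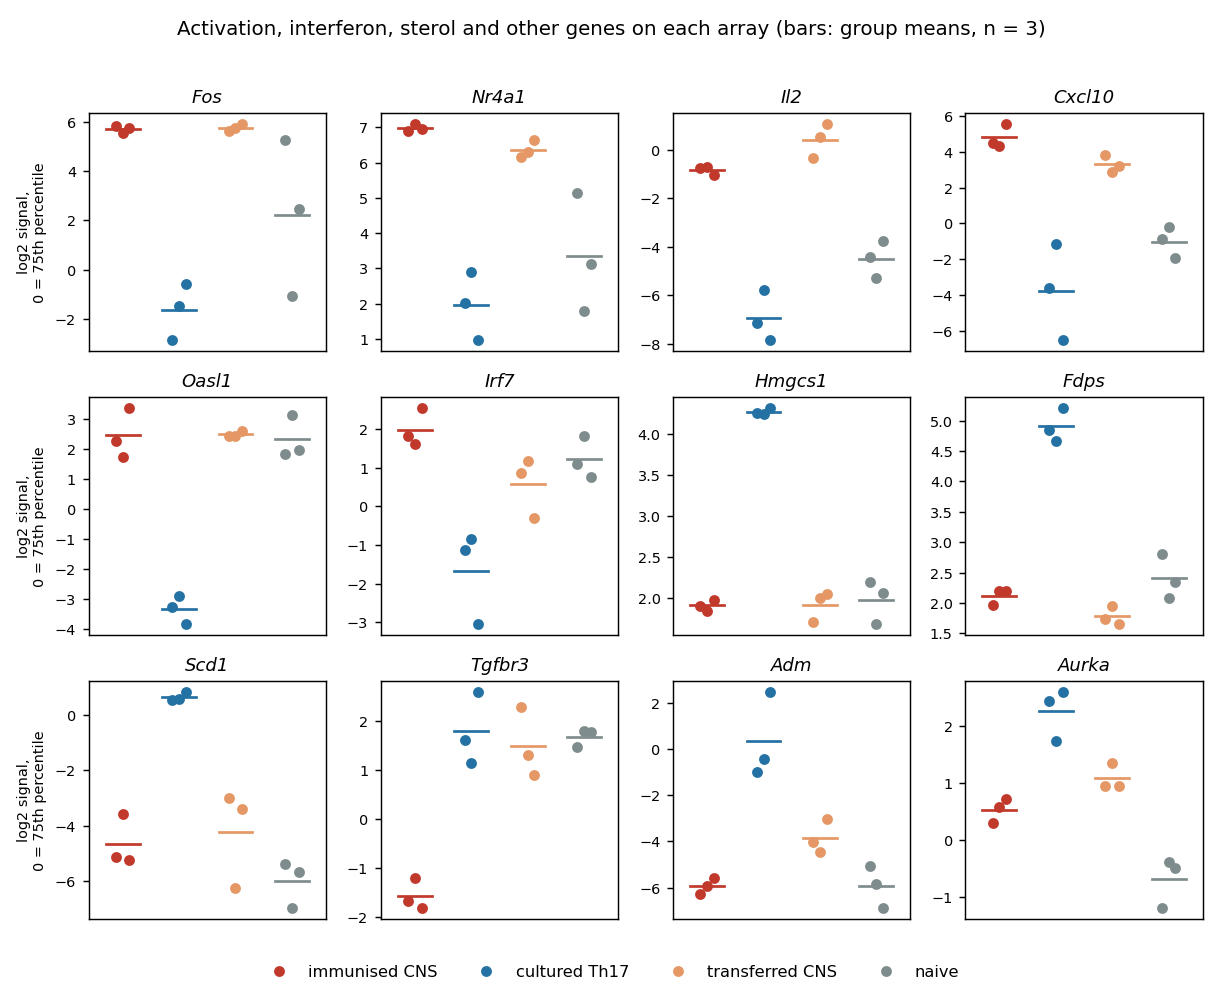
Log2 level (0 is the 75th percentile of the array) of 12 genes of activation, interferon response, sterol synthesis and other groups, 1 panel per gene with its own vertical scale, 1 point per array and a bar at the mean of 3 arrays per group. Hmgcs1, Fdps and Scd1 are high in cultured Th17 cells alone, and Fos, Il2 and Cxcl10 are higher on every immunised CNS array than on every cultured Th17 array.

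Chemokine receptors had 6 of 17 called higher and 0 lower. Cx3cr1, the fractalkine receptor of microglia and monocytes, was 3.70, 4.01 and 4.34 in immunised CNS cells, against -3.86, -5.01 and -6.11 in cultured Th17 cells, beside the microglia and macrophage markers given above. Ccrl2 rose by 6.45. Cxcr6 was high in both, at 5.82, 6.21 and 5.61 in immunised CNS cells, against 6.32, 6.88 and 5.38 in cultured Th17 cells (limma adjusted p = 0.512, and a difference of 0.03 without cultured Th17 replicate 2). Cxcr4 and S1pr1 had differences of 0.89 and 0.72 that did not pass the test.

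Adhesion and migration genes had 11 of 27 higher and 3 lower. Itga4 and Itgb1 encode the chains of the integrin VLA-4, by which T cells cross vessels of the CNS. Itga4 was 3.25, 3.46 and 2.99 in immunised CNS cells, against 1.20, 1.26 and -1.31 in cultured Th17 cells (difference 2.85 ± 0.58 SE). Itgb1 was 2.92, 3.41 and 2.44 in immunised CNS cells, against 0.37, 0.81 and -0.09 in cultured Th17 cells (difference 2.56 ± 0.29 SE). Neither gene overlapped between the groups. Itga3, an integrin chain for laminins, fell by 2.92.

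Lysophospholipid and eicosanoid genes had 8 of 20 called higher and 5 lower, with Enpp2 the largest fall. Alox5ap, Ptgs2 and Ptgs1, genes of leukotriene and prostaglandin synthesis that macrophages and neutrophils express, rose by 6.14, 6.25 and 5.74. TGF-beta and retinoid genes had 4 of 17 higher and 3 lower. The lower members included Cyp26b1, which encodes an enzyme that breaks down retinoic acid, with a call (-2.91) lost on leaving out any 1 immunised array or cultured Th17 replicate 2, and Tgfbr3, the gene of the TGF-beta co-receptor betaglycan. Tgfbr3 was -1.68, -1.21 and -1.82 in immunised CNS cells, against 1.63, 1.15 and 2.59 in cultured Th17 cells. Tgfbr1, the signalling receptor gene, rose by 2.12. Heat shock genes had 2 of 12 higher and 0 lower, and 1 higher without immunised CNS replicate 1, 2 or 3 or cultured Th17 replicate 1. Death and survival genes had 5 of 17 higher and 2 lower, and 0 lower on leaving out any 1 immunised array or cultured Th17 replicate 3.

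**Figure D5:**
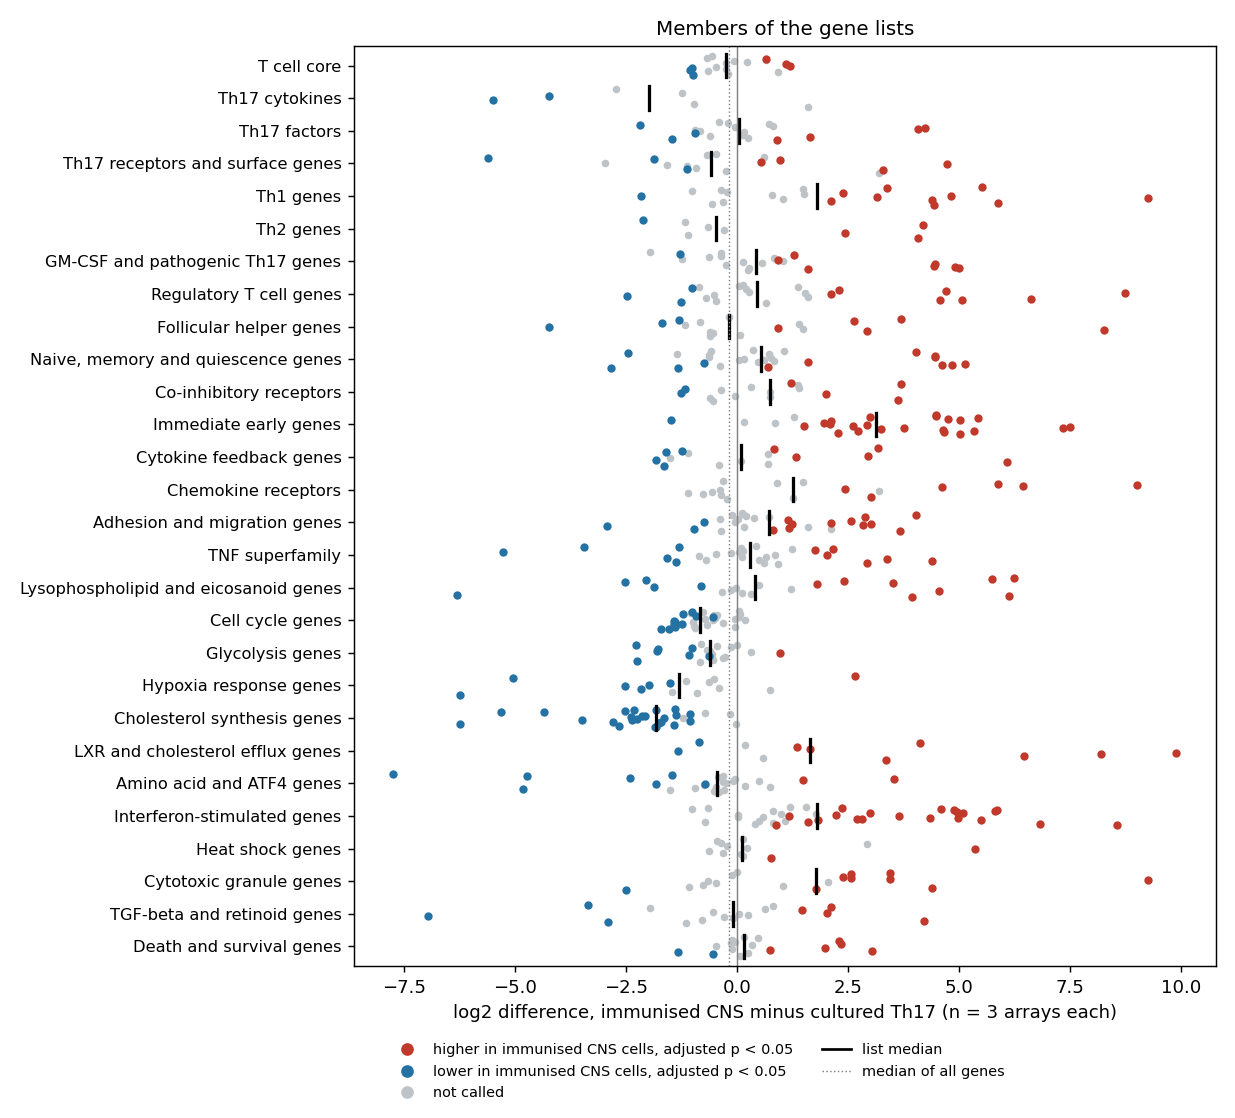
Log2 difference between immunised CNS cells and cultured Th17 cells for each tested member of 28 gene lists (horizontal axis; 1 point per gene, coloured where called, black bar at the list median, dotted line at the median of all genes, -0.17). Immediate early, interferon-stimulated and Th1 genes have medians to the right, at 3.12, 1.80 and 1.81, and cholesterol synthesis genes a median to the left, at -1.83.

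Some genes set immunised CNS cells apart from all other samples. All 3 immunised arrays lay above the other 9, with calls against both cultured Th17 and transferred CNS cells, for 151 genes (0.811% of those tested), and below the other 9 for 94 (0.505%). Of the 8 genes chosen above the others by the naming rule, 7 were T cell receptor beta variable segments, among them ENSMUST00000103262, ENSMUST00000103263, ENSMUST00000103264 and ENSMUST00000103266. The other was Chil1, a chitinase-like gene of neutrophils and macrophages, at 3.56, 3.03 and 0.81 in immunised CNS cells and at least 301-fold higher than in cultured Th17 cells. Of the 8 chosen below the others, 4 were the receptor probes whose sequences are printed above. The others were Pcsk1, a prohormone convertase gene, 2410137M14Rik, Tgfbr3 and Olfr635, an olfactory receptor gene. Pcsk1 was -3.89, -2.25 and -3.94 in immunised CNS cells, against 1.46, 1.11 and 2.01 in cultured Th17 cells, and averaged 0.08 in transferred CNS cells.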

How the data were processed

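RNA of CD4+ cells was labelled with Cy3 and hybridised to 12 one-colour arrays, 3 in each of 4 groups, per the labels' protocols. The deposited intensities are the processed signals of Agilent Feature Extraction 10.7.3.1 (protocol GE1_107_Sep09), background-subtracted, per the file headers. Probe coordinates are those of mm9, per the file headers. The deposited series matrix holds the authors' processed intensities of the same arrays. They were used, after taking log2 and scaling to the 75th percentile, as an alternative only. How the authors normalised them is not given in the sources used here. Flagged outlier spots (120 to 180 on an array) and control spots were left out, no spot was saturated, and spots of a probe were averaged. The log2 signal minus the 75th percentile of each array's non-control probes (657.8 to 940 signal units) is the level. Of 39429 probes, 27234 were named through their accession, 3576 by symbol and 565 by synonym in RefSeq, and 8054 kept the file's name. Of several probes of a gene, the brightest on average stood for it. A gene was tested if some group had it well above background on each of its 3 arrays (18630 genes), so that list members that failed this filter are not counted.

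limma 3.58.1 in R 4.3.3 fitted all 12 arrays together, with moderated tests and Benjamini-Hochberg adjustment over 18630 genes. Where a group was not well above background on any array, the fold is a lower bound: the bright group's mean against the dim group's mean of, per array, the higher of the lowest signal well above background and the probe's own value. Named genes were the 10 largest rises and falls among called genes measured on all 6 arrays without overlap, the 5 largest lower bounds each way, the 8 most separated from all other samples each way, members of the gene lists in order of change, and a fixed set of T helper genes. The members and lists were chosen with earlier results of these data known. Simulated data in which 200 of 18630 genes were changed served to test the fit. It recovered 21% of 2-fold and 71% of 4-fold changes, with 5 unchanged genes called as well. The simulation gave every group the same spread and changed few genes. In the data 31.5% of genes were called, and the median SD was 0.206 in immunised and 0.350 in cultured samples. The recovery rates therefore do not describe this comparison. Replicate number and slide coincide, and same-numbered immunised and cultured samples did not deviate together (r = 0.026, -0.012 and 0.059), so the numbers were not used as pairs. Scaling, background correction, source of values, filter, probe choice, samples in the fit, the replicate block and each array in turn were varied. Sequence windows are RefSeq's (GRCm38.p6). Some genes are not reported here.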

Additional observations from a re-analysis of the deposited data

Results flagged for a closer look

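Of 172 genes named or listed for the text, 45 also differed between immunised and transferred CNS cells. By limma's test of the 2 CNS groups (adjusted p under 0.05), 26 were higher and 19 lower. The 172 leave out some beta variable probes named above, which are given below. Of all genes tested, 1.85% were called higher and 1.37% lower in that comparison. The count is no result about the named genes. Those named as separated from all other samples had to pass this same test, and others were chosen with earlier results known. The values below are fitted log2 differences, immunised minus transferred. Where 1 group was not well above background on any array, the fitted value is no bound, and the lower bound of the fold is given beside it. No explanation was tested.

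The beta variable probe ENSMUST00000103277 had a fitted difference of 7.09 and ENSMUST00000103273 one of 7.25. Neither was well above background on any transferred array, and they were at least 68.5-fold and at least 80.0-fold higher in immunised CNS cells. The beta variable probe ENSMUST00000103265 differed by 6.71 and the alpha variable probe ENSMUST00000103641 by 4.36, each well above background on 1 of 3 transferred arrays. The beta cDNA probe GU599378 differed by -6.18, ENSMUST00000103626 by -5.12, LOC100505348 by -4.33 and ENSMUST00000103594 by -5.27. The constant regions ENSMUST00000103299, ENSMUST00000103740 and ENSMUST00000103291 differed by -2.02, -1.87 and -1.06.

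Among T helper and regulatory genes, Il21 differed by -4.27, Foxp3 by 4.25, Ikzf2 by 4.43, Klrg1 by 3.62, Rora by 1.72, Icos by 1.52, Cxcr6 by 1.74 and Hopx by 1.56. The granzyme genes Gzmk, Gzmb and Gzmm differed by 2.71, 2.89 and 2.19. Cd8a differed by 3.21, Cd5 by 2.24, Cd6 by 1.65, S1pr1 by 2.25, Dtx1 by 3.60, Ccr9 by 2.17, Fosl1 by 1.75 and Bach2 by -1.67.

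Neutrophil and macrophage genes were split. Camp differed by 5.58, Lcn2 by 5.03, Ltf by 6.40, Ngp by 6.14 and Chil1 by 6.92, whereas Mrc1, a macrophage receptor gene, differed by -4.57. The transferred replicates 1, 2 and 3 were far apart for these neutrophil genes. Camp was 3.11, -0.19 and -2.91 in them, and Lcn2 2.40, 0.03 and -2.76. Ltf was 1.10, -1.51 and -4.98, and Ngp 1.86, -1.65 and -5.97. Ngp, Chil1 and Ikzf2 were well above background on 2 of 3 transferred arrays and Cd8a on 1 of 3, so that these sizes rest in part on values near background. Neutrophil markers were 5.14 to 5.49 in immunised CNS cells, against 2.55 to 4.0 in transferred CNS cells, and 9 of 17 were called higher. Macrophage markers were 5.20 to 6.35 in immunised CNS cells, against 5.79 to 6.33 in transferred CNS cells.

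The other lower genes were Stc2 (-3.45), Tgfbr3 (-3.07), Lama5 (-4.12), Bace2 (-3.57), Pcsk1 (-3.44) and Olfr635 (-3.01). Cth, Foxf1 and 2410137M14Rik were not well above background on any immunised array: their fitted differences were -5.45, -2.35 and -3.90, and they were at least 12.1-fold, at least 1.64-fold and at least 8.97-fold lower in immunised CNS cells.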

How the results depend on the processing

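Against cultured Th17 cells, the main setting called 5862 genes, and 11 other settings 3279 (adjusted p under 0.01) to 6036 (quantile normalization). Leaving out 1 array in turn gave 4110 to 5793. Against transferred CNS cells the main setting called 600, against 371 with no filter on dim probes, 185 at an adjusted p under 0.01, and 193 to 1290 on leaving out 1 array in turn (193 without immunised CNS replicate 1, 1290 without cultured Th17 replicate 3). With the replicate number, which is also the slide, as a replicate block, 5603 genes were called against culture and 557 against transferred CNS cells; Il23r, Ccr6 and Cd4 gained a call, and Icos, Il6st and Cyp26b1 lost theirs. Median scaling moved the median difference of all genes from -0.17 to -0.25, and higher genes made up 40.4% to 48.3% of the called ones over the 21 settings that kept the threshold, beside 43.5%. They made up 50.7% at an adjusted p under 0.01 and 50.4% with a 2-fold change in addition. Of 150 called genes among 172 named or listed for the text, 130 kept their call under all 21 settings, and none of the 150 changed sign under them. Among genes not called, Gata3 changed sign without cultured Th17 replicate 3 (0.52), and Il22 (0.22) and Cxcr6 (0.03) without cultured Th17 replicate 2. The called genes that lost a call include Ifng, Icos, Isg15, Tnf and Vegfa, and all 5 of these lost their call when only the 6 arrays compared were fitted. Of 2520 list counts and medians under these settings, 189 moved, a count by more than 1.5 times or to or from 0, a median by at least 0.35. The causes were not tested.

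The labels do not say how the cells were sorted, and 3 arrays a group limit the precision. Levels near background are bounds. The comparison differs in strain, receptor, tissue, culture, array position and sex-linked transcripts at once, and their parts cannot be told apart.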
